A study of Mus musculus with 2 samples.

Results

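Transcripts of 29 genes that mark monocytes and macrophages were followed in RNA sequencing libraries of sorted mouse Langerhans cells. The genes were chosen by name, as widely used markers of monocytes (9 genes), of myeloid cells in general (10 genes) and of tissue macrophages (10 genes). All 29 matched a single row each among the 55487 genes counted. The cells were sorted from ears of HTR2A-/- mice, which lack the serotonin 2A receptor, as cells positive for CD207 (langerin) and MHC class II. After the sort they were kept for 24 hours with imiquimod, an agonist of Toll-like receptor 7, and an agent labelled a-CD40L. The 2 libraries form 1 group. No wild-type or untreated cells were analysed here, so every value describes knockout cells after stimulation, and the only difference that can be given is that between the libraries. Strain, age, the deleted part of the receptor gene and the mice behind each library are not stated by the labels, so the spread between the libraries may be technical.

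The title of the series calls the cells monocyte-derived, which makes these markers the direct point of interest. Langerhans cells are the antigen-presenting cells of the epidermis. In the steady state they descend from embryonic precursors that settle in the skin and renew themselves there, under the control of the receptor CSF1R and its ligand IL-34. After inflammation, blood monocytes can enter the epidermis and take on a Langerhans cell phenotype. Langerhans cells of either origin share several genes with macrophages, so a marker transcript does not by itself tell the origin of a cell. In bulk samples, fewer cells of a type and less RNA per cell cannot be told apart.

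Library 1 held 69925160 counts and library 2 42264685 counts. Levels are given as CPM, the count divided by the library total and scaled up by the usual constant factor, and levels of different genes are compared as CPM per kb of exon. Intervals are exact 95% Poisson or binomial intervals and cover counting error only. Genes of olfactory receptors, which skin cells do not use, measured the floor: a gene counted as above background where its level per kb exceeded the 95th percentile of 1135 such genes, 0.761 CPM per kb in library 1 and 1.58 CPM per kb in library 2. The defining Langerhans cell genes were present. Cd207, which encodes langerin, was at 1125 CPM in library 1, against 1052 CPM in library 2. All 12 genes of a Langerhans cell list were above background in both libraries, against 49.8% of protein-coding genes. The list includes genes of the proteins used for the sort, so their presence is no independent check of it. Keratinocyte genes were present too, and their summed level was 4309.9 CPM in library 1, against 15229 CPM in library 2.

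Most of the 29 genes were detected above background. Above background in both libraries were 23 of 29 members, against 49.8% of protein-coding genes and 27.2% of all genes with a length. Library 1 by itself had 27 members above background, against 58.9% of protein-coding genes, and library 2 had 24, against 52.9%. All 10 general myeloid genes passed in both libraries, as did 7 of 10 tissue macrophage genes and 6 of 9 monocyte genes. Together the members made up 0.416% of all counts in library 1 and 0.263% in library 2. The levels spanned a wide range, and 15 members in library 1 and 13 in library 2 stood at or above the 95th percentile of protein-coding genes per kb. By the mean of the 2 libraries the most abundant per kb were Apoe, S100a4, Lyz2 and S100a6, but the order differed between the libraries, with S100a4 highest in library 1 and Apoe in library 2. Ly6c2, Plac8, Vcan and Trem2 passed in library 1 alone and Folr2 in library 2 alone, and Vsig4 was within background in both libraries.

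**Figure D1:**
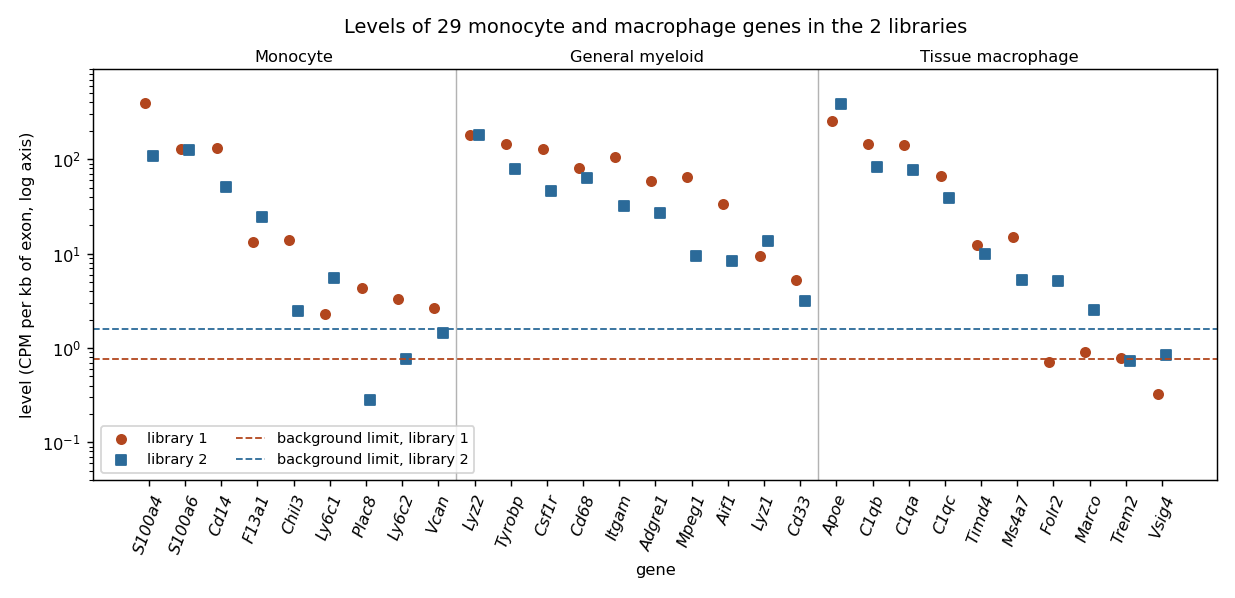
Level of each member in CPM per kb of exon on a log axis, with circles for library 1 and squares for library 2. Genes are grouped by role and ordered by mean level, and dashed lines mark the background limit of each library. The 10 general myeloid genes sit above both limits, whereas Plac8, Ly6c2 and Vcan lie above the limit in library 1 and below it in library 2.

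The monocyte genes split into abundant members and members near the floor. Ly6C, the surface antigen that marks classical blood monocytes, is encoded by the paralogous genes Ly6c1 and Ly6c2, of which monocytes use mainly Ly6c2 and endothelial cells mainly Ly6c1. Ly6c2 (ENSMUSG00000022584, GRCm38 chromosome 15, 75108158 to 75111970, minus strand) was at 9.14 CPM in library 1 (95% interval 8.44 to 9.88) and 2.08 CPM in library 2 (1.67 to 2.57). Ly6c1 (ENSMUSG00000079018, chromosome 15, 75044018 to 75048830, minus strand) was at 3.804 CPM (3.36 to 4.29) in library 1 and 9.299 CPM (8.402 to 10.3) in library 2. Library 1 thus had more Ly6c2 and library 2 more Ly6c1. Per kb, Ly6c2 in library 2 reached percentile 60.4 among olfactory receptor genes, within background. That level uses 2740 bases, all annotated exons merged, whereas the longest coding transcript has 822 bases. A shorter length raises the level per kb, so the background call depends on the length used. Ly6c2 made up 70.6% of the counts of the pair in library 1 (exact binomial interval 67.5 to 73.6) and 18.3% in library 2 (14.9 to 22.05). Added up, the pair was at 12.9 CPM in library 1, against 11.4 CPM in library 2. The longest coding transcripts share a run of 188 identical bases, and 32.6% of the 50-base windows of Ly6c2 occur in Ly6c1, so the division of reads between the copies is uncertain. Endothelial genes as a list were close to the floor, with Pecam1, an adhesion molecule also of leukocytes, the 1 gene of 6 above background in both libraries. The list summed to 75.4 CPM in library 1, against 35.1 CPM in library 2, and Pecam1 alone made up 52.1 and 12.2 CPM of these sums. The part of endothelial cells in the Ly6c1 counts was not tested.

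**Figure D2:**
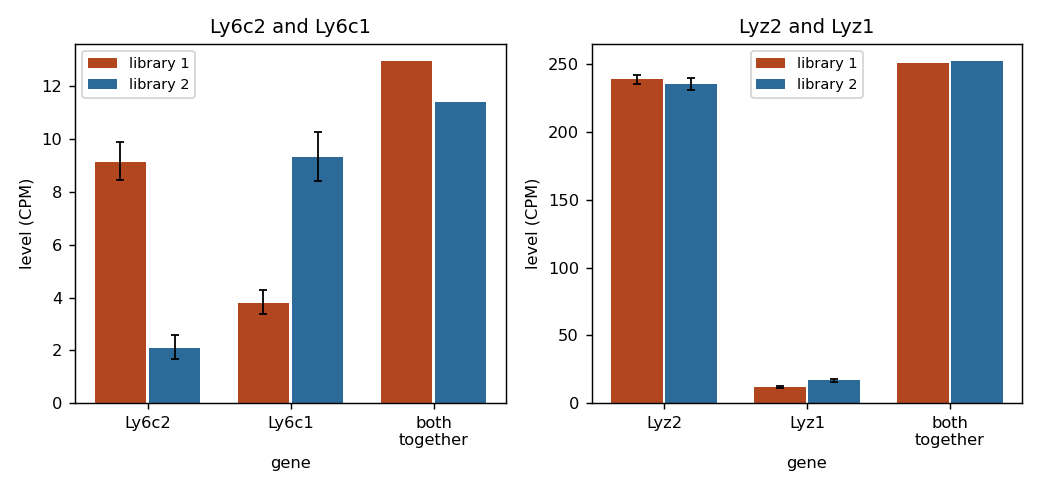
Levels in CPM of the copies Ly6c2 and Ly6c1 (left) and Lyz2 and Lyz1 (right), alone and added up, on axes that start at 0. Red bars are library 1, blue bars are library 2, and the error bars on single genes are exact 95% Poisson intervals. Ly6c2 is the higher copy in library 1 and Ly6c1 in library 2, whereas Lyz2 is far above Lyz1 in both.

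Other genes of inflammatory monocytes were low in library 2. Plac8, a small cysteine-rich protein of monocytes and plasmacytoid dendritic cells, had 485 counts in library 1 and 19 in library 2, or 6.94 CPM (6.33 to 7.58) and 0.45 CPM (0.271 to 0.702). Chil3, which encodes the chitinase-like protein Ym1, was at 22.97 CPM in library 1, against 4.02 CPM in library 2. Vcan, the proteoglycan versican, was at 38.3 CPM in library 1, against 20.8 CPM in library 2. In library 2 Plac8 and Vcan were within background, whereas Chil3 was above it in both libraries. Of the 50-base windows of Chil3, 18.5% occur in its close copy Chil4, so its counts too may be shared.

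The abundant monocyte genes were S100a4, S100a6, Cd14 and F13a1. S100a4 and S100a6 encode small calcium-binding proteins and lie close together on chromosome 3. S100a4 was at 232 CPM in library 1, against 63.8 CPM in library 2, whereas S100a6 was nearly the same on the CPM scale, with 176 CPM in library 1, against 171 CPM in library 2, and had a log2 ratio of 0.54 after the TMM scaling described further on. A predicted gene on the same strand, Gm42674, covers 51.7% of the S100a4 exon bases and had 0 counts in both libraries. Keratinocytes and fibroblasts also express S100a6, and lymphocytes and fibroblasts also express S100a4. Cd14, the co-receptor for lipopolysaccharide, was at 231 CPM in library 1, against 87.9 CPM in library 2. F13a1, the A subunit of coagulation factor XIII, which monocytes and dermal macrophages make, was at 89.1 CPM in library 1, against 164 CPM in library 2. S100a4 and Cd14 were higher in library 1 and F13a1 higher in library 2, so the abundant monocyte genes did not follow a single order between the libraries.

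The general myeloid genes were present in both libraries at levels that spanned more than an order of magnitude. Lyz2, lysozyme M, was at 237 ± 2.42 CPM (SD, n = 2), with 239 CPM in library 1 and 235 CPM in library 2. After the TMM scaling described further on, its log2 ratio of library 1 over library 2 was 0.52. Lyz1, the copy that Paneth cells of the gut use, was at 11.9 CPM in library 1, against 16.99 CPM in library 2. Per kb of exon Lyz2 exceeded Lyz1 19.2 times in library 1 (interval 17.9 to 20.6) and 13.3 times in library 2 (12.3 to 14.4). Of the 50-base windows of Lyz2, 15.4% occur in Lyz1, and how the counting split such reads is not known. The genes lie close together on chromosome 10. Their promoters are shown because the copies differ so widely in level while the 120 bases before their start sites (RefSeq, GRCm38.p6) are identical at 111 positions and differ at 9, which are set in capitals.
Lyz2, chr10:117282273-117282392, minus strand: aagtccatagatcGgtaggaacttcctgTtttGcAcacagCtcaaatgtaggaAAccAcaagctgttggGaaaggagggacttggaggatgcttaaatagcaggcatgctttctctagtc
Lyz1, chr10:117292869-117292988, minus strand: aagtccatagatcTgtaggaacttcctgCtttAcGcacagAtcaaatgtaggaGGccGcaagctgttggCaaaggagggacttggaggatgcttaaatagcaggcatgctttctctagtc

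Surface receptors of myeloid cells were abundant and higher in library 1. Csf1r, the receptor for CSF-1 and IL-34 on which macrophages and Langerhans cells depend, was at 738 CPM in library 1, against 263 CPM in library 2, or 128 and 45.6 CPM per kb. Itgam (ENSMUSG00000030786, chromosome 7, 128062640 to 128118491, plus strand), the integrin chain CD11b, was at 526 CPM in library 1, against 159.6 CPM in library 2. Adgre1, which encodes F4/80, was at 189.7 CPM in library 1, against 87.99 CPM in library 2. All 3 stood above the 95th percentile of protein-coding genes per kb in both libraries. Relative to Cd207 per kb, Csf1r was at 17.3% in library 1 and 6.59% in library 2, Itgam at 14.2% and 4.59%, and Adgre1 at 7.93% and 3.93%. Itgam exceeded Itgax, the CD11c chain, 2.27 times per kb in library 1 and 2.04 times in library 2. A predicted gene on the same strand, Gm49368, covers 68.7% of the Itgam exon bases and had counts equal to 3.95% of those of Itgam in library 1 and 2.401% in library 2. The gene Hmgxb3, on the opposite strand, shares 15.1% of the Csf1r exon bases.

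The remaining myeloid genes ranged from abundant adaptors to low receptors. Tyrobp, the adaptor DAP12 of activating myeloid receptors, was at 144 CPM per kb in library 1, against 78.1 CPM per kb in library 2. Cd68, a lysosomal glycoprotein, was at 81.03 CPM per kb in library 1, against 63.5 CPM per kb in library 2. Mpeg1, which encodes the pore-forming protein perforin-2, was at 64.7 CPM per kb in library 1, against 9.401 CPM per kb in library 2. Tyrobp and Cd68 stayed above the 98th percentile of protein-coding genes in both libraries, at 98.4 and 98.05 in library 2, whereas Mpeg1 stood at percentile 98.1 in library 1 and 84.3 in library 2. Aif1, the actin-binding protein IBA1, was at 33.97 CPM per kb in library 1, against 8.29 CPM per kb in library 2. Cd33, a sialic acid-binding lectin, was the lowest of the group at 5.31 CPM per kb in library 1, against 3.18 CPM per kb in library 2.

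Among tissue macrophage genes, Apoe and the complement C1q genes were abundant. Apoe, the apolipoprotein of lipid transport, was at 543 CPM in library 1, against 825 CPM in library 2, which made it the most abundant member per kb over the 2 libraries, with 254 and 386 CPM per kb. Keratinocytes also express Apoe, and the keratinocyte list was higher in library 2 as well, but its part in the Apoe level was not tested. The order of Apoe rests on the scaling, with a log2 ratio of library 1 over library 2 of -0.60 by library totals and -0.10 after the TMM scaling described further on. The genes C1qa, C1qb and C1qc encode the chains that assemble into C1q, the recognition unit of the classical complement pathway, and lie within a cluster on chromosome 4 (136880129 to 136898803, GRCm38, minus strand). C1qa was at 149 CPM in library 1, against 80.9 CPM in library 2. C1qb was at 157 CPM in library 1, against 89.9 CPM in library 2. C1qc was at 128 CPM in library 1, against 75.2 CPM in library 2.

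The chains kept nearly fixed proportions. The C1qa to C1qb ratio per kb was 0.994 in library 1 (interval 0.967 to 1.02) and 0.941 in library 2 (0.899 to 0.986). The ratio of C1qc to C1qb was 0.459 (0.446 to 0.472) in library 1 and 0.471 (0.449 to 0.494) in library 2. For C1qa to C1qc it was 2.16 (2.10 to 2.23) in library 1 and 2.00 (1.90 to 2.098) in library 2. The counting intervals of this last ratio did not overlap. The absolute C1qc level per kb uses an annotated exon length of 1931 bases, minor transcripts included, and by counts alone its ratio to C1qb was 0.815 in library 1 and 0.836 in library 2. No 50-base window is shared between the 3 transcripts.

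The upstream sequences of Itgam, C1qb and C1qc are shown as regions of a receptor gene and of cluster neighbours that carry the letters GAGGAA. This is the core of the PU box, to which the myeloid transcription factor PU.1 (encoded by Spi1) binds, and it is set in capitals on either strand (TTCCTC on the opposite one). Each region is the 250 bases before the start site (RefSeq, GRCm38.p6).
Itgam, chr7:128062390-128062639, plus strand: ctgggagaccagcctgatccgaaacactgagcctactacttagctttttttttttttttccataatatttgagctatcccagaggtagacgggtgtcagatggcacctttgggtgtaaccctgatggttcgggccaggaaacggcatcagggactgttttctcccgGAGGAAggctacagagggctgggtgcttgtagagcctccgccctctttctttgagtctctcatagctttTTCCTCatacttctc
C1qb, chr4:136886201-136886450, minus strand: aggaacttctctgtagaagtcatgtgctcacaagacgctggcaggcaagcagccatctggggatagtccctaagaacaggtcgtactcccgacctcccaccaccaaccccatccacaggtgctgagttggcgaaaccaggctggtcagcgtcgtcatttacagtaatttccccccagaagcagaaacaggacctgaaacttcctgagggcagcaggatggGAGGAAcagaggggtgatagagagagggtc
C1qc, chr4:136892915-136893164, minus strand: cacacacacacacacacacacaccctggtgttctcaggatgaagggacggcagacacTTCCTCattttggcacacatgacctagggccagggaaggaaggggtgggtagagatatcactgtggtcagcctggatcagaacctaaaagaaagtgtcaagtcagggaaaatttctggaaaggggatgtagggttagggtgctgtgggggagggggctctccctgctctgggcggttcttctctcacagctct

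Of the 29 members, 24 matched an upstream region, and 14 of these (58.3%) held the 6 letters on at least 1 strand, against 23.1% of 27025 such regions of all genes. By role they were 4 of 8 monocyte, 4 of 7 general myeloid and 6 of 9 tissue macrophage regions. Lyz2 and Lyz1 did not hold the letters in this window. Spi1 itself was at 172 CPM in library 1, against 56.5 CPM in library 2. A match of letters is a description of the sequence and not a binding site.

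Genes of resident macrophage subsets were at lower levels than Apoe and the C1q genes. Timd4, the phosphatidylserine receptor TIM-4 of long-lived resident macrophages, was at 27.1 CPM in library 1, against 21.6 CPM in library 2. Ms4a7, a membrane protein of macrophages, was at 66.7 CPM in library 1, against 23.6 CPM in library 2. Both were above background in both libraries. Trem2, a lipid receptor that signals through Tyrobp, was at 3.86 CPM in library 1, against 3.57 CPM in library 2, or percentiles 95.3 and 56.8 per kb among olfactory receptor genes. Its TMM-scaled log2 ratio of 0.61 became 3.28 with the median level of those genes subtracted. The percentiles and the subtraction rest on the merged exon length of 4946 bases. In library 2 the subtraction removed 134.8 of 151 Trem2 counts. Marco, a scavenger receptor of alveolar and splenic macrophages, was at 1.76 CPM in library 1, against 4.87 CPM in library 2, above the limit in both. Vsig4, the complement receptor CRIg of Kupffer cells, had 34 counts in library 1 and 53 in library 2, or percentiles 68.6 and 67.8 per kb.

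Folr2, the folate receptor β of tissue-resident macrophages, had the opposite order from most members. It had 77 counts (1.101 CPM) in library 1 and 338 counts (7.997 CPM) in library 2, and was above background in library 2 alone. The antisense gene Gm10602 covers 63.1% of the Folr2 exon bases and moved with it, with 69 counts in library 1 and 281 in library 2. The libraries were made with a stranded kit, but no source used here says whether the counting used strand, so reads of the pair cannot be told apart.

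Set against each other, the libraries differed in most members. After scaling by TMM, a trimmed mean that sets the bulk of genes equal, 17 of 29 members were at least 2-fold higher in library 1, against 12.6% of 30373 genes with at least 1 CPM in either library. At least 2-fold lower in library 1 was 1 member, Folr2, against 24.5% of the genes. Among protein-coding genes the shares were 15.3% higher and 16.7% lower. With library totals alone the counts were 11 higher and 4 lower (Folr2, Ly6c1, Marco and Vsig4), against 5.48% and 38.6% of genes. The members' median log2 ratio of library 1 over library 2 was 1.30, beside -0.15 for all genes with TMM, and it was 0.80 beside -0.65 with library totals. With TMM the median was 0.09 for protein-coding genes and 0.33 for genes above background in both libraries. The counting interval of the TMM ratio left out equality for 28 of 29 members, the exception being Lyz1, against 80.8% of all genes tested and 83.8% of protein-coding ones. With 1 library on each side no test across genes was made, and these ratios compare the libraries and not conditions.

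**Figure D3:**
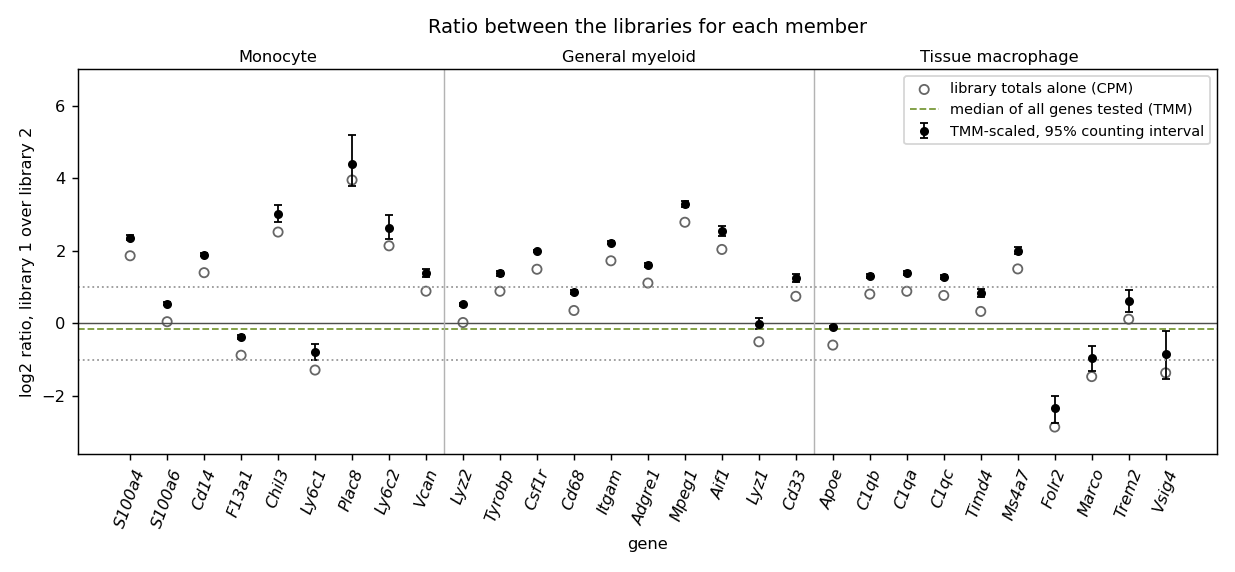
Log2 ratio of library 1 over library 2 for each member, by role. Filled points are TMM-scaled with 95% counting intervals, open points use library totals alone, dotted lines mark 2-fold, and the dashed line is the median of all genes tested. Plac8 (4.38) and Mpeg1 (3.28) lie highest and Folr2 (-2.34) lowest.

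The ratios spread widely within each role. Among monocyte genes 6 of 9 were at least 2-fold higher in library 1 and none at least 2-fold lower, with a median log2 ratio of 1.89. Plac8 had the largest at 4.38 (counting interval 3.79 to 5.19), followed by Chil3 at 3.01 (2.79 to 3.25) and Ly6c2 at 2.62 (2.31 to 2.97), while Ly6c1 had -0.79 and F13a1 -0.38. Since Plac8 and Ly6c2 lay within background in library 2 by merged exon length, their ratios there are set against the floor. With the median level of olfactory receptor genes subtracted, the log2 ratio was 5.17 for Ly6c2 and 2.12 for Vcan, against 1.38 for Vcan without subtraction. It was 8.74 for Plac8, of which no counts were left in library 2. The Plac8 value thus depends on the prior count and is no bound. The subtraction grows with the merged exon length. For Ly6c2, with 2740 bases, it removed 74.7 of 88 counts in library 2, so the Ly6c2 value depends on that length. Among general myeloid genes 7 of 10 were at least 2-fold higher, with a median of 1.496, led by Mpeg1 at 3.28 (3.21 to 3.36), Aif1 at 2.53 and Itgam at 2.22. Tissue macrophage genes had 4 of 10 higher and 1 lower, with a median of 0.72.

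Lists of other cell types were measured beside the members. For Langerhans cell genes the median log2 ratio was 1.34, beside 1.30 for the members, and 8 of 12 were higher in library 1 by at least 2-fold, while Cd207 itself had 0.60. Summed CPM of the members was 4164 in library 1 and 2629.6 in library 2, and of the Langerhans cell list 20376 and 11012. Keratinocyte genes ran the other way, with 10 of 12 at least 2-fold lower in library 1 and a median of -1.38. The T cell list summed to 220.2 CPM in library 1, against 132 CPM in library 2, and the fibroblast list to 119 and 53.4 CPM. The neutrophil list summed to 321 and 627 CPM, most of it from S100a9 (182 and 425 CPM) and S100a8 (63.6 and 165 CPM). Of the 8 neutrophil genes with at least 1 CPM in either library, 2 were at least 2-fold higher in library 1 and 0 at least 2-fold lower. Their median log2 ratio was -0.05. Above background in both libraries were 6 of 8 T cell, 7 of 10 neutrophil and 0 of 8 fibroblast genes, against 49.8% of protein-coding genes. The neutrophil elastase gene Elane had 0 counts in library 1. B cell genes (0 of 4), mast cell genes (2 of 6) and conventional dendritic cell genes (4 of 7) completed the lists, with counts near or below that share. Their sums were 10.4, 64.1 and 403 CPM in library 1 and 13.1, 42.99 and 134 CPM in library 2. The mast cell protease gene Mcpt4 had 0 counts in library 1. The part of any of these cells in the members' ratios was not tested.

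**Figure D4:**
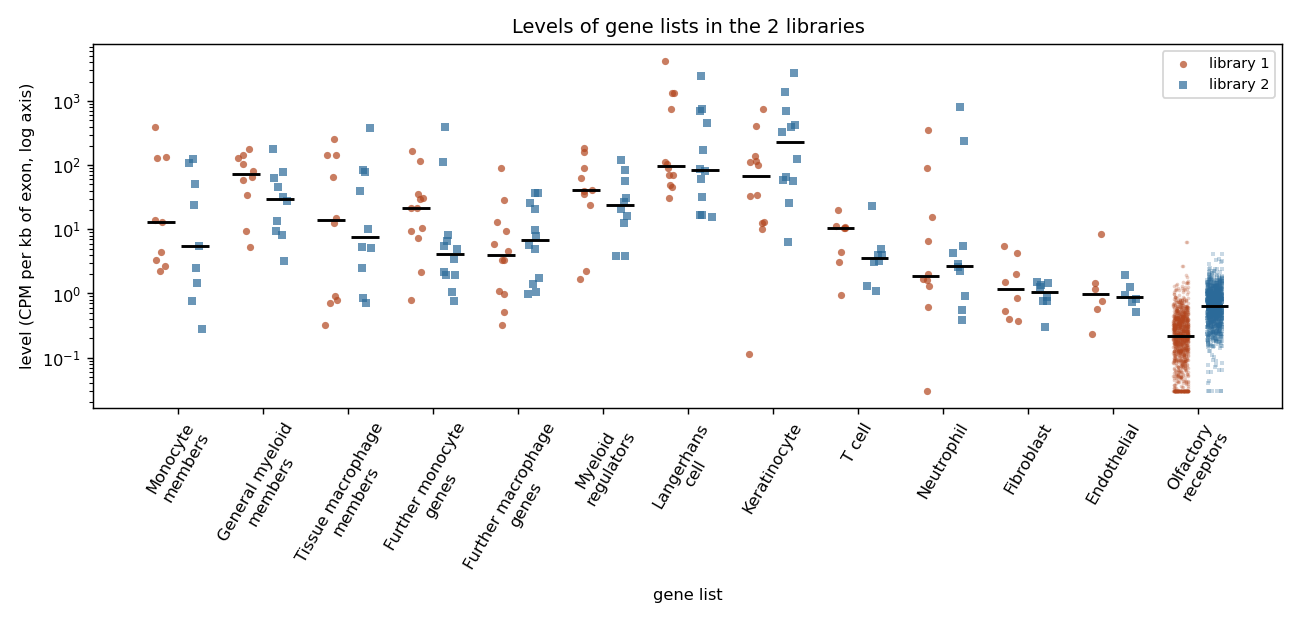
Level per gene in CPM per kb of exon on a log axis for each gene list, with circles for library 1 on the left, squares for library 2 on the right and black bars at the medians. Levels under 0.03 are drawn at 0.03. The general myeloid members lie well above the olfactory receptor genes in both libraries, and the keratinocyte list is higher in library 2.

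Further genes of the monocyte and macrophage programme were counted from lists outside the members. Of 12 further monocyte genes 10 were above background in both libraries, against 49.8% of protein-coding genes. Of the 12, 8 exceeded 2-fold toward library 1 and 0 toward library 2, and the median log2 ratio was 2.35. The most abundant per kb were the matrix glycoprotein gene Thbs1 (166 CPM per kb in library 1, against 399.5 CPM per kb in library 2), which keratinocytes and fibroblasts also express, and the nuclear receptor gene Nr4a1 (116 CPM per kb in library 1, against 111 CPM per kb in library 2), an immediate early gene that patrolling monocytes require. Fcgr4, an Fc receptor, followed with 35.1 CPM per kb in library 1, against 6.57 CPM per kb in library 2. Of 12 further macrophage genes 8 were above background in both, 3 exceeded 2-fold toward library 1 and 4 toward library 2, with a median of -0.06. Among the more abundant of them per kb were the selenium carrier gene Selenop (28.98 CPM per kb in library 1, against 37.3 CPM per kb in library 2) and the mannose receptor gene Mrc1 (12.9 CPM per kb in library 1, against 21.04 CPM per kb in library 2).

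All 10 regulators of myeloid cells were above background in both libraries, against 49.8% of protein-coding genes. The most abundant per kb were the transcription factor gene Cebpb (185 CPM per kb in library 1, against 119.98 CPM per kb in library 2), the shared receptor chain gene Csf2rb of GM-CSF, IL-3 and IL-5 (160.3 CPM per kb in library 1, against 56.8 CPM per kb in library 2) and the transcription factor gene Klf4 (89.5 CPM per kb in library 1, against 85.2 CPM per kb in library 2). At least 2-fold higher in library 1 were 6, none was at least 2-fold lower, and the median log2 ratio was 1.09. Of the ligands of Csf1r, Csf1 was at 1.65 CPM per kb in library 1, against 3.82 CPM per kb in library 2. The other ligand, Il34, was at 2.28 CPM per kb in library 1, against 3.86 CPM per kb in library 2. Per kb the Csf1r level was 77.4 times that of Csf1 in library 1 and 11.9 times in library 2.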

How the data were processed

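The authors deposited raw counts, as whole numbers for every Ensembl gene, in a column for each library. Per the submitters' processing notes, Trimmomatic, HISAT2, SAMtools, StringTie and the build GRCm38 were used. Versions, annotation release, strand setting and handling of read pairs were not given in the sources used here, and read pairs counted as separate reads would make the intervals too narrow. Per the labels' protocols, a stranded kit for low RNA input was used. The column with the number 2 is library 2, and the column without a number is library 1. Of the table, 55487 gene rows were used, and 1 row of totals without an identifier was left out. Symbols, positions and exon lengths (all annotated exons of a gene merged, minor transcripts included) came from GENCODE M21 on GRCm38 for 55227 rows. CPM used the library totals. TMM factors came from edgeR 4.0.16 and size factors from DESeq2 1.42.0 (R 4.3.3), for scaling alone. Genes that reached 1 CPM in either library entered the ratios, with a prior count of 1. A list was described by counts and medians, and no test was made because 1 group of 2 libraries allows none. The calculation of the ratios was checked on simulated data, a check that does not cover the spread between the 2 libraries. A count of 0 allows up to 3 counts, 0.0429 CPM in library 1 and 0.071 CPM in library 2. The members and lists were chosen with earlier results of these data known. All members are named, and of each other list at most the 3 genes highest per kb and those with 0 counts; other names were chosen after their values were seen. Of the genes this rule names, 1 is not reported here.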

Additional observations from a re-analysis of the deposited data

How the results depend on the processing

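The number of members above background in both libraries, 23 of 29, was 25 with the 90th and 22 with the 99th percentile of olfactory receptor genes, 22 without division by length, and 25 with the length of the longest transcript, a choice added after the data were seen. In single libraries it was 24 (library 2) to 27 (library 1). Scaling moved the counts of members past 2-fold most. With library totals alone, members at least 2-fold higher in library 1 numbered 11 and lower 4, against 5.48% and 38.6% of all genes. The median log2 ratio of the members was then 0.80. Scaled to the Cd207 count, an alternative chosen after seeing the data, they numbered 11 and 4, against 4.65% and 41.6%. The members' median was then 0.71. These scalings shift every gene by a constant, which is the cause. DESeq2 size factors and other count filters gave 17 higher and 1 lower, against 12.4% to 16.4% and 20.1% to 32.2% of all genes. Background subtraction gave 18 higher and 1 lower, against 28.6% and 20.6% of all genes. Single ratios near the floor moved further with background subtraction, to 8.74 for Plac8 (4.38 without), 5.17 for Ly6c2 (2.62), 3.28 for Trem2 (0.61) and 2.12 for Vcan (1.38). The subtraction grows with the merged exon length, so these values depend on that length too. Members near equality changed sign: Lyz1 (0.0931) and Apoe (0.00195) with DESeq2 size factors, Lyz1 (0.0273) with background subtracted, and S100a6 (-0.0535) and Lyz2 (-0.0756) scaled to Cd207. No paired analysis was possible because the 2 libraries form a single group. A ratio has no value with a library left out.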

Other observations

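Among the genes outside the members, some monocyte and some resident macrophage genes stood apart, and those named here were chosen after their values were seen. Ccr2, the chemokine receptor that brings monocytes out of the bone marrow, was at 50.2 CPM in library 1, against 7.07 CPM in library 2, and per kb it was within background in library 2. Ms4a4c, a membrane protein of monocytes, was at 37.1 CPM in library 1, against 3.38 CPM in library 2. Spn, the sialoglycoprotein CD43 of non-classical monocytes and T cells, was at 138 CPM in library 1, against 16.3 CPM in library 2. Each was thus lower in library 2, with TMM-scaled log2 ratios of library 1 over library 2 of 3.32, 3.95 and 3.58. The summed T cell list was higher in library 1 too, and its part in the Spn level was not tested.

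Some genes of resident dermal macrophages ran the other way, but the list of further macrophage genes was split. Of its 12 genes 3 were at least 2-fold higher in library 1 and 4 at least 2-fold lower, with a median log2 ratio of -0.06. Mertk (2.60) and Maf (1.40) were among the higher ones. Cd163, the haemoglobin scavenger receptor, was at 17.9 CPM in library 1, against 142 CPM in library 2. Lyve1, a hyaluronan receptor of perivascular macrophages and lymphatic vessels, was at 2.87 CPM in library 1, against 28.5 CPM in library 2. Their log2 ratios were -2.48 and -2.80, on the side of Folr2 (-2.34) and F13a1 (-0.38) and opposite to the median of the members (1.30). With library totals these ratios move further from 0 by about 0.501. Mrc1 (-0.20) and Siglec1 (-0.30), a sialic acid-binding lectin of macrophages, differed little with TMM. These are 2 libraries of 1 group, and what separates them beyond the sort and handling described was not tested.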
